A study of Mus musculus with 34 samples.

Results

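The genes described here are 10 members of the hypoxia-inducible factor (HIF) pathway, taken as a named list by gene symbol: the factor subunits *Hif1a*, *Epas1* and *Arnt*, the oxygen sensors *Egln1* and *Egln3*, the degradation factor *Vhl*, and the target genes *Car9*, *Ndrg1*, *Bnip3* and *Ankrd37*. All 10 were among the 23509 genes of the deposited count tables, and all 10 were among the 15644 genes that passed the filter on low counts and were tested. HIF is a dimer of an alpha subunit, encoded by *Hif1a* or *Epas1*, and the beta subunit encoded by *Arnt*. In the presence of oxygen the prolyl hydroxylases encoded by *Egln* genes mark the alpha subunit, and the VHL ubiquitin ligase then directs it to degradation. When oxygen is low the alpha subunit persists, pairs with ARNT, binds hypoxia response elements in DNA and switches on genes of glycolysis, pH control, vessel growth and mitochondrial turnover. Much of this control acts on protein, which was not measured.

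Kidney mRNA was sequenced from 34 C57BL6 mice on postnatal day (P) 28, in 3 groups. *Pkd2*-KO mice, a polycystic kidney model, received subcutaneous PBS (n = 11) or 20 mg per kg RGLS4326 (n = 11), a short chemically modified oligonucleotide that binds miR-17, a microRNA, at its seed. Doses were given on P10, P11, P12 and P19. Untreated wild-type mice of the same strain and age (UNT, n = 12) received no injection, so the knockout and the injection of PBS cannot be told apart in any comparison with them. In the *Pkd2*-KO mice (Pkhd1/cre;*Pkd2* F/F) the recombinase is driven by the promoter of *Pkhd1*, which is active mainly in collecting duct, and the remaining kidney cells keep *Pkd2*. The labels spell the genotype "Pdk2KO", while the description of the study names *Pkd2*.

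Libraries held 17603122 to 54981992 reads in genes (the depth), with medians of 43050262 in UNT, 33573702 in PBS and 25551168 in RGLS4326 mice. Levels are given in CPM, read counts relative to library size scaled by edgeR's TMM factors (trimmed mean of M values). *Pkd2*, the targeted gene, was 220 to 338 CPM in UNT, 98.0 to 215 CPM in PBS and 170 to 237 CPM in RGLS4326 mice (PBS against UNT, log2 fold change -0.78 ± 0.09 SE, edgeR adjusted p = 1.4e-09). *Pdk2*, a different gene with the spelling of the labels, was also lower in PBS mice (-1.17, adjusted p = 5.32e-12). The library PBS 9 resembled its group least (median correlation 0.972, against 0.984 or more in every other library). Reads assigned to no gene (the unassigned share) made up 12.9 to 14.9% in UNT, 6.08 to 11.0% in PBS and 5.82 to 14.6% in RGLS4326 libraries. Both the depth and the unassigned share thus differed between groups. As covariates they take up part of a group difference, so a call lost with either cannot be assigned to the covariate or to the group. The numbering of libraries in the table names restarted and split the mice into 3 sets, each holding all 3 groups, and what differed between the sets was not given in the sources used here. In PBS against UNT mice the markers of proximal tubule (7 of 7), distal convoluted tubule (2 of 2) and podocytes (3 of 3) were lower, and those of macrophages (6 of 6), fibroblasts (4 of 4), collecting duct principal cells (4 of 4), T cells (3 of 3) and proliferation (4 of 4) were higher. Of 2 tested erythroid markers 2 were lower, and *Slc4a1* is counted both there and among the intercalated cell markers. Markers of thick ascending limb (1 higher, 2 lower of 3), intercalated cells (1 higher, 2 lower of 3) and endothelium (2 higher, 4 lower of 7) were mixed. In whole kidney, fewer cells of a type and less RNA per cell cannot be told apart.

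To ask how the pathway differed between the groups, 3 comparisons were made on 1 edgeR fit: PBS minus UNT (the disease contrast), RGLS4326 minus PBS (the treatment contrast) and RGLS4326 minus UNT (the residual contrast). They share mice, so their values are given side by side. The p of edgeR's quasi-likelihood test was adjusted over all tested genes by Benjamini-Hochberg, and a gene was called at an adjusted p under 0.05. The disease contrast had 2 of the 10 members higher (*Egln3*, *Vhl*) and 4 lower (*Egln1*, *Car9*, *Ndrg1*, *Bnip3*), where 82.1% of all tested genes were called, 43.1% higher and 39.0% lower. With library totals alone in place of TMM scaling, which moved the median log2 fold change of all genes from 0.04 to 0.33, 6 members were higher and 3 lower. The members then also called higher were *Hif1a* (0.34), *Epas1* (0.20), *Arnt* (0.30) and *Ankrd37* (0.44), and *Egln1* was no longer called. In the treatment contrast 2 were higher (*Epas1*, *Car9*) and 1 was lower (*Egln3*), where 33.8% of all tested genes were called, 15.3% higher and 18.5% lower. In the residual contrast 4 were higher (*Hif1a*, *Arnt*, *Egln3*, *Vhl*) and 4 were lower (*Egln1*, *Car9*, *Ndrg1*, *Bnip3*), where 77.7% of all tested genes were called, 40.8% higher and 36.9% lower. The share of members called was thus 60% in the disease contrast, 30% in the treatment contrast and 80% in the residual contrast, and its difference from the share of all tested genes was not tested. Their median absolute log2 fold change was 0.35 in the disease contrast against 0.60 for all tested genes, and 0.19 in the treatment contrast against 0.18. PBS and UNT groups did not overlap in 3 of the 10 genes, as in 42.5% of all tested genes, RGLS4326 and UNT groups in 3 of 10 against 36.7%, and RGLS4326 and PBS groups in 0 of 10 against 0.0639%.

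**Figure D1:**
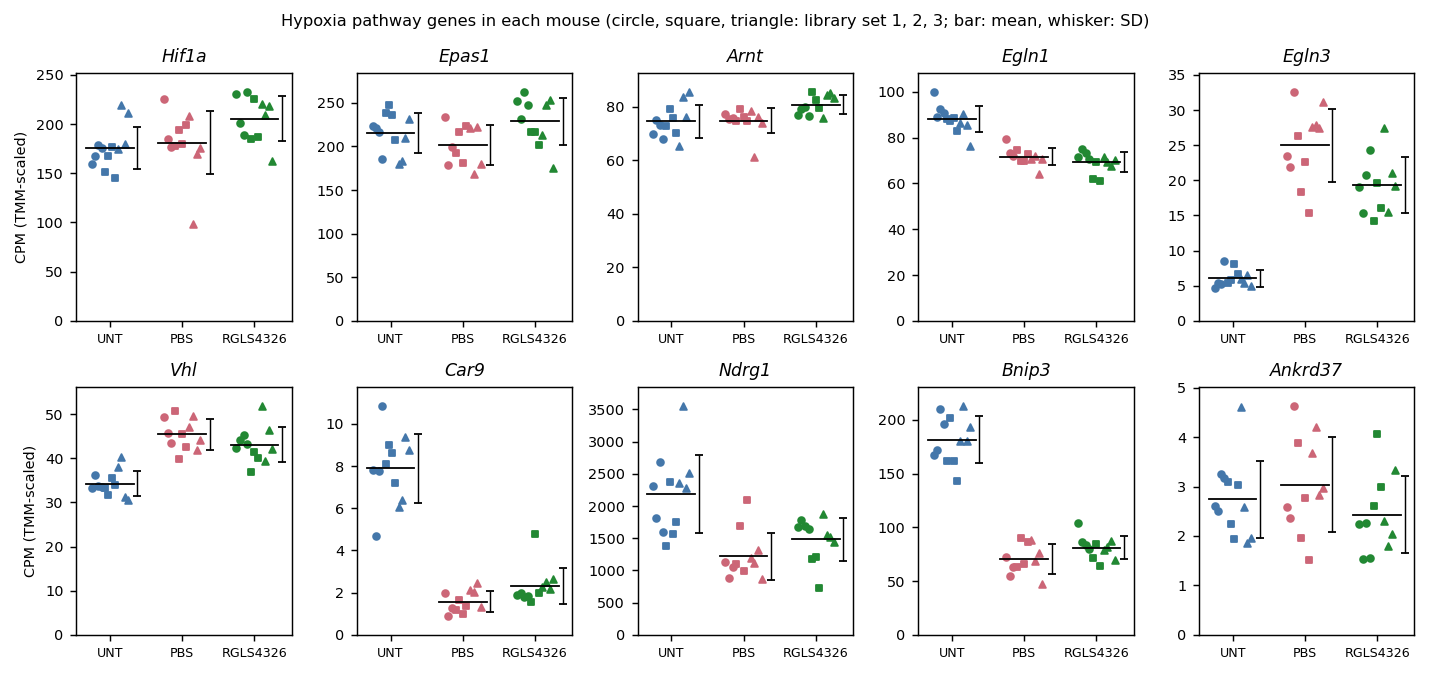
CPM of the 10 hypoxia pathway genes in each of the 34 mice by group, with symbols for the 3 library sets, a bar at the group mean and a whisker of 1 SD. UNT mice lie apart from PBS mice for *Egln3* (below), *Car9* and *Bnip3* (above), while RGLS4326 and PBS mice overlap in every panel.

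Compared per kilobase (kb) of exon, *Ndrg1* had the highest level of the 10 genes in every group, at 331 ± 92.0 CPM per kb in UNT mice (SD, n = 12), 185 ± 55.4 in PBS mice (n = 11) and 224 ± 50.2 in RGLS4326 mice (n = 11). In UNT mice it was followed in level per kb by *Bnip3* (80.2), *Epas1* (38.5), *Hif1a* (29.8), *Egln1* (24.5), *Vhl* (11.4), *Arnt* (9.29), *Car9* (3.42), *Egln3* (2.27) and *Ankrd37* (1.78). The ranges over UNT mice overlapped between neighbours in this order for *Epas1* and *Hif1a*, *Hif1a* and *Egln1*, *Vhl* and *Arnt*, *Car9* and *Egln3*, and *Egln3* and *Ankrd37*. In PBS mice *Bnip3* (31.2) came below *Epas1* (36.0) and close to *Hif1a* (30.7), all with overlapping ranges. *Egln3* (9.38) reached the level per kb of *Arnt* (9.33) in PBS mice, and *Car9* (0.681) was the lowest of the 10. The order in RGLS4326 mice differed from that in PBS mice only in *Arnt* (10.1) lying above *Egln3* (7.25), whose ranges overlapped.

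**Figure D2:**
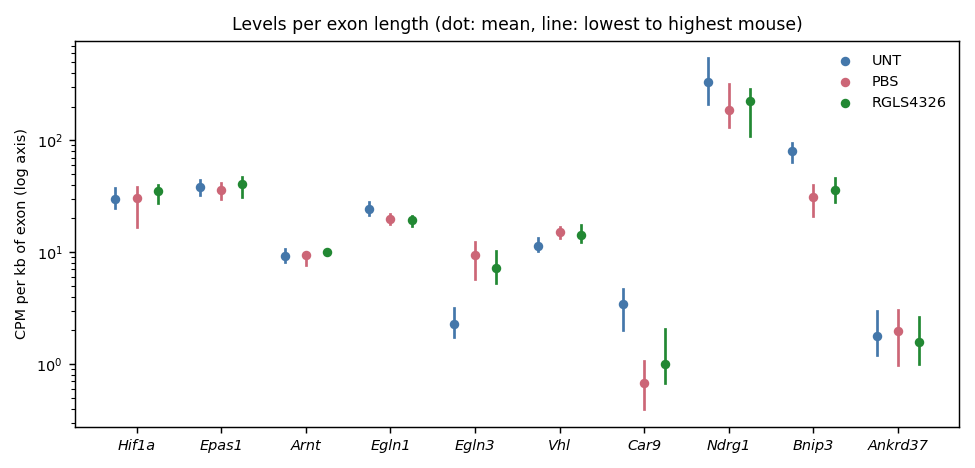
Level of each gene as CPM per kb of exon on a log axis, by group. Dots are group means and lines run from the lowest to the highest mouse. The means span 0.681 CPM per kb (*Car9* in PBS mice) to 331 (*Ndrg1* in UNT mice).

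Of the HIF subunits, *Hif1a*, *Epas1* and *Arnt* were not called in the disease contrast. *Hif1a*, the alpha subunit found in most cell types (GRCm38 chr12:73901375-73947530, plus strand), ranged from 145 to 219 CPM in UNT mice (median 175), from 98.9 to 225 CPM in PBS mice (median 180) and from 162 to 233 CPM in RGLS4326 mice (median 209). The 3 groups overlapped, and the lowest value of the 34 belonged to PBS 9, the library that resembled its group least. The log2 fold change of *Hif1a* was 0.04 ± 0.09 (SE) in the disease contrast (edgeR adjusted p = 0.648) and 0.18 ± 0.09 in the treatment contrast (adjusted p = 0.105). In the residual contrast it was 0.23 ± 0.09 (adjusted p = 0.0187), with 10 of 11 RGLS4326 mice above the UNT mean. That call was absent with the unassigned share as a covariate (log2 fold change 0.16, adjusted p = 0.199), with the depth as a covariate (0.18, adjusted p = 0.134) and within library set 3 (0.05, adjusted p = 0.853). The exons of *Hif1a* share 5.6% of their bases with an antisense gene (*Gm15283*) and the strand setting of the counting was not stated, so a part of its counts is uncertain.

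*Epas1*, the alpha subunit prominent in endothelium and renal interstitial cells (chr17:86753700-86833410, plus strand), ranged from 180 to 248 CPM in UNT mice (median 219), from 168 to 234 CPM in PBS mice (median 199) and from 176 to 263 CPM in RGLS4326 mice (median 231). The groups overlapped, although 5 of 11 RGLS4326 mice lay above every PBS mouse. Its log2 fold change was -0.10 ± 0.07 in the disease contrast (edgeR adjusted p = 0.206) and 0.09 ± 0.07 in the residual contrast (adjusted p = 0.239). With library totals alone in place of TMM scaling, which moved the median of all genes to 0.33, the disease value of *Epas1* was 0.20 (adjusted p = 0.0101), below that median. In the treatment contrast *Epas1* was 1.14-fold higher (log2 fold change 0.18 ± 0.07, adjusted p = 0.0435), with 9 of 11 RGLS4326 mice above the PBS mean. This call was lost when any of 14 mice was left out (RGLS4326 1 to 6, 9 and 10, and PBS 2, 3, 4, 6, 9 and 11), with adjusted p up to 0.078, and in 7 of 13 other settings. The summed level of 7 endothelial markers had medians of 760 CPM in UNT, 615 in PBS and 745 in RGLS4326 mice. Of these markers 2 were higher and 4 lower in the disease contrast, and 4 were higher and 0 lower in the treatment contrast. Their part in the result was not tested.

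*Arnt*, the shared beta subunit (chr3:95434388-95497240, plus strand), had the least spread of the subunits. It ranged from 65.2 to 85.6 CPM in UNT mice (median 74.0), from 61.3 to 79.0 CPM in PBS mice (median 75.5) and from 75.6 to 85.4 CPM in RGLS4326 mice (median 79.8). All 11 RGLS4326 mice lay above the PBS mean and 7 of them above every PBS mouse. The treatment difference was 0.11 ± 0.05 on the log2 scale and missed the threshold (edgeR adjusted p = 0.0561), and it crossed that threshold in 4 of 13 other settings. The residual difference was 0.12 ± 0.04 (adjusted p = 0.0168) and lost its call in 8 of 13 other settings, among them relative log expression factors (0.08, adjusted p = 0.0925) and DESeq2 (0.08, adjusted p = 0.0762). The disease difference was 0.01 ± 0.04 (adjusted p = 0.896).

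The sensors and the degradation factor moved in different directions. *Egln1*, the main prolyl hydroxylase that marks the alpha subunit (chr8:124908587-124949324, minus strand), ranged from 76.5 to 100.1 CPM in UNT mice (median 88.4), from 64.2 to 79.5 CPM in PBS mice (median 71.9) and from 61.1 to 75.2 CPM in RGLS4326 mice (median 70.0). Of the PBS mice 10 of 11 lay below every UNT mouse, and all 11 RGLS4326 mice did. *Egln1* was 1.23-fold lower in the disease contrast (log2 fold change -0.30 ± 0.04, edgeR adjusted p = 4.92e-08) and lower in the residual contrast (-0.35 ± 0.04, adjusted p = 2.17e-09). Without TMM scaling, where the median of all genes stood at 0.33, the disease value was -0.00449 (adjusted p = 0.92) and the residual value -0.05 (adjusted p = 0.285), so that *Egln1* fell relative to the other genes and not relative to the library total. The treatment difference was -0.05 ± 0.04 (adjusted p = 0.354).

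*Egln3*, a prolyl hydroxylase that is itself a known HIF target (chr12:54178981-54203860, minus strand), rose most of the 10 genes. It ranged from 4.67 to 8.50 CPM in UNT mice (median 5.61), from 15.4 to 32.6 CPM in PBS mice (median 26.3) and from 14.2 to 27.4 CPM in RGLS4326 mice (median 19.1). Every *Pkd2*-KO mouse lay above every UNT mouse, and PBS and RGLS4326 mice overlapped. *Egln3* was 4.12-fold higher in the disease contrast (log2 fold change 2.04 ± 0.12, edgeR adjusted p = 2.63e-17) and 3.19-fold higher in the residual contrast (1.67 ± 0.12, adjusted p = 8.22e-15). Between RGLS4326 and PBS mice *Egln3* fell by 0.37 ± 0.12 on the log2 scale (adjusted p = 0.0193), with 10 of 11 RGLS4326 mice below the PBS mean. The treatment call held without any 1 mouse (adjusted p 0.00616 to 0.0411). It was lost with the unassigned share as a covariate (-0.21, adjusted p = 0.31), with the depth as a covariate (-0.34, adjusted p = 0.0691) and in each library set alone, where the log2 ratio of means was -0.39, -0.31 and -0.46. Within groups the level of *Egln3* correlated with the unassigned share (r = -0.46 over 34 mice). Markers of other cells moved in the same libraries. Summed medians in UNT, PBS and RGLS4326 mice were 617, 1428 and 821 CPM for 4 principal cell markers (4 higher in the disease and 3 lower in the treatment contrast), 114, 1388 and 1079 for 6 macrophage markers (6 higher, 3 lower) and 512, 3447 and 3827 for 4 fibroblast markers (4 higher, 0 lower). Their part in the result was not tested.

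*Vhl*, the substrate-recognition subunit of the ubiquitin ligase that degrades the alpha subunits (chr6:113623959-113631633, plus strand), ranged from 30.5 to 40.4 CPM in UNT mice (median 33.6), from 39.8 to 50.8 CPM in PBS mice (median 45.5) and from 37.0 to 52.0 CPM in RGLS4326 mice (median 42.3). Of the PBS mice 10 of 11 lay above every UNT mouse, as did 8 of 11 RGLS4326 mice. *Vhl* was 1.32-fold higher in the disease contrast (log2 fold change 0.41 ± 0.05, edgeR adjusted p = 1.3e-08) and 1.26-fold higher in the residual contrast (0.33 ± 0.05, adjusted p = 1.03e-06), and both calls held in all 13 other settings and without any 1 mouse. The disease value was 0.19 (adjusted p = 0.0212) with the unassigned share as a covariate and 0.70 with library totals alone, and the residual values were 0.20 and 0.63. The log2 ratio of PBS to UNT means was 0.44, 0.41 and 0.38 in library sets 1, 2 and 3. The treatment difference was -0.08 ± 0.05 (adjusted p = 0.259). Within groups the level of *Vhl* correlated with the unassigned share (r = -0.57 over 34 mice).

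**Figure D3:**
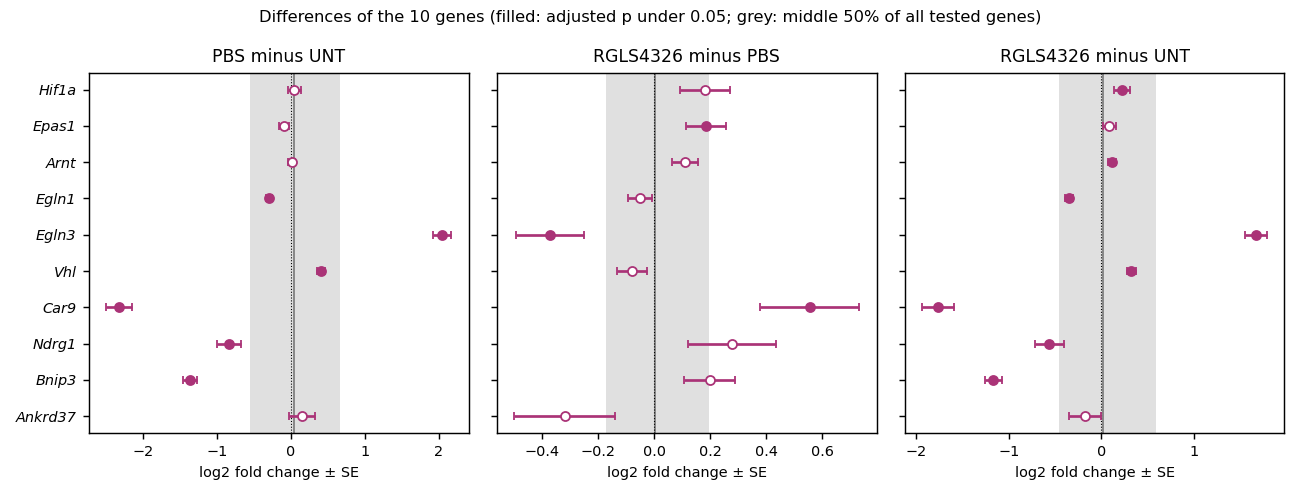
Log2 fold change ± SE of each gene in the 3 contrasts, filled where the adjusted p was under 0.05, with the middle 50% of all tested genes in grey and a vertical line at their median. *Egln3* at 2.04 and *Car9* at -2.32 lie farthest out in the disease contrast, and the horizontal scale of the treatment contrast is narrower.

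Of the 4 target genes, 3 were lower in *Pkd2*-KO kidneys. *Car9*, a cell-surface carbonic anhydrase that regulates pH and is used as a marker of HIF activity (chr4:43506966-43513729, plus strand), ranged from 4.68 to 10.9 CPM in UNT mice (median 7.97), from 0.910 to 2.45 CPM in PBS mice (median 1.36) and from 1.56 to 4.77 CPM in RGLS4326 mice (median 2.0). Counts behind these values were low, 140 to 412 per UNT library and 25 to 103 per PBS library. Every PBS mouse lay below every UNT mouse, and 10 of 11 RGLS4326 mice did. *Car9* was 5.0-fold lower in the disease contrast (log2 fold change -2.32 ± 0.17, edgeR adjusted p = 1.1e-14) and 3.4-fold lower in the residual contrast (-1.77 ± 0.17, adjusted p = 1.11e-11), and these calls held in all 13 other settings. In the treatment contrast *Car9* was 1.47-fold higher (0.56 ± 0.18, adjusted p = 0.0176), with 10 of 11 RGLS4326 mice above the PBS mean. The mouse RGLS4326 6 had 4.77 CPM while the next highest RGLS4326 mouse had 2.65, and without it the difference was 0.39 (adjusted p = 0.0574). The treatment call was also lost with either covariate (adjusted p = 0.201 and 0.0516) and within library sets 1 (0.45, adjusted p = 0.408) and 3 (0.28, adjusted p = 0.479). An antisense gene (*Gm12454*) shares 9.29% of the exon bases of *Car9*.

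*Ndrg1*, a stress-response gene induced by low oxygen (chr15:66929318-66969640, minus strand), varied most between UNT mice among the abundant members. It ranged from 1377 to 3561 CPM in UNT mice (median 2295), from 860 to 2087 CPM in PBS mice (median 1118) and from 727 to 1875 CPM in RGLS4326 mice (median 1542). Of the PBS mice 9 of 11 lay below every UNT mouse, and 3 of 11 RGLS4326 mice did. *Ndrg1* was 1.79-fold lower in the disease contrast (log2 fold change -0.84 ± 0.16, edgeR adjusted p = 9.19e-06) and 1.48-fold lower in the residual contrast (-0.56 ± 0.16, adjusted p = 0.00149). The disease call was absent in library set 2, where the highest PBS mice lay (-0.30, adjusted p = 0.315). The residual call was lost with library totals alone (-0.25, adjusted p = 0.105) and in library set 1 (-0.33, adjusted p = 0.0581). The treatment difference was 0.28 ± 0.16 (adjusted p = 0.163), and without PBS 7, the PBS mouse with the highest value, it was 0.38 (adjusted p = 0.0427). The log2 ratio of RGLS4326 to PBS means was 0.74, -0.50 and 0.51 in sets 1, 2 and 3. Genes on the opposite strand share 6.35% (*Gm17035*) and 2.08% (*Gm2895*) of the exon bases of *Ndrg1*, so a part of its counts is uncertain.

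*Bnip3*, which drives the removal of mitochondria (chr7:138890836-138909519, minus strand), ranged from 143 to 213 CPM in UNT mice (median 180), from 47.3 to 89.8 CPM in PBS mice (median 68.4) and from 63.9 to 104 CPM in RGLS4326 mice (median 81.3). Every *Pkd2*-KO mouse lay below every UNT mouse. *Bnip3* was 2.57-fold lower in the disease contrast (log2 fold change -1.36 ± 0.09, edgeR adjusted p = 6.71e-16) and 2.24-fold lower in the residual contrast (-1.17 ± 0.09, adjusted p = 5.71e-14), and both calls held in all 13 other settings. The treatment difference was 0.20 ± 0.09 (adjusted p = 0.0867), with 9 of 11 RGLS4326 mice above the PBS mean, and it passed the threshold when PBS 5, 7 or 8 was left out (adjusted p down to 0.0364). An antisense gene (*Gm45507*) shares 22.3% of the exon bases of *Bnip3*. A part of its counts is therefore uncertain, and how many reads that involves is not known. Proximal tubule, rich in mitochondria, had a summed level of 7 markers with medians of 11844 CPM in UNT, 1763 in PBS and 2795 in RGLS4326 mice, so it was lower where *Car9*, *Ndrg1* and *Bnip3* were lower; its part in these results was not tested.

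*Ankrd37*, an ankyrin-repeat gene induced by low oxygen (chr8:45996902-46005707, minus strand), was not called in any contrast with TMM scaling. It ranged from 1.86 to 4.62 CPM in UNT mice (median 2.60), from 1.51 to 4.64 CPM in PBS mice (median 2.83) and from 1.54 to 4.06 CPM in RGLS4326 mice (median 2.26), on 28 to 182 counts per library. The 3 groups overlapped over nearly their whole range. Its log2 fold change was 0.14 ± 0.17 in the disease contrast (edgeR adjusted p = 0.447), -0.32 ± 0.18 in the treatment contrast (adjusted p = 0.161) and -0.18 ± 0.18 in the residual contrast (adjusted p = 0.369). Its disease value with library totals alone was 0.44 (adjusted p = 0.0267), where the median of all genes stood at 0.33. Its exons share 22.7% of their bases with *Lrp2bp* on the opposite strand, which had 496 reads over the 34 libraries, and 3.7% with *Ufsp2*, which had 45640, so its low counts are uncertain.

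The treatment differences of the members were also examined within the 3 library sets. The log2 ratio of RGLS4326 to PBS means had the same sign in all 3 sets for *Hif1a* (0.13, 0.08 and 0.31), *Epas1* (0.29, 0.06 and 0.17), *Arnt* (0.04, 0.11 and 0.18), *Egln3*, *Vhl* (-0.08, -0.18 and -0.02) and *Car9* (0.43, 1.1 and 0.28). For *Egln1*, *Ndrg1*, *Bnip3* and *Ankrd37* it did not. A test of whether the treatment difference of a gene differed between sets called 0 of 15233 genes with edgeR, while 796 had an unadjusted p under 0.05. Among the members the unadjusted p was 0.00165 for *Ndrg1* and 0.0451 for *Ankrd37*, and the adjusted p was 0.865 or higher for all 10 genes.

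**Figure D4:**
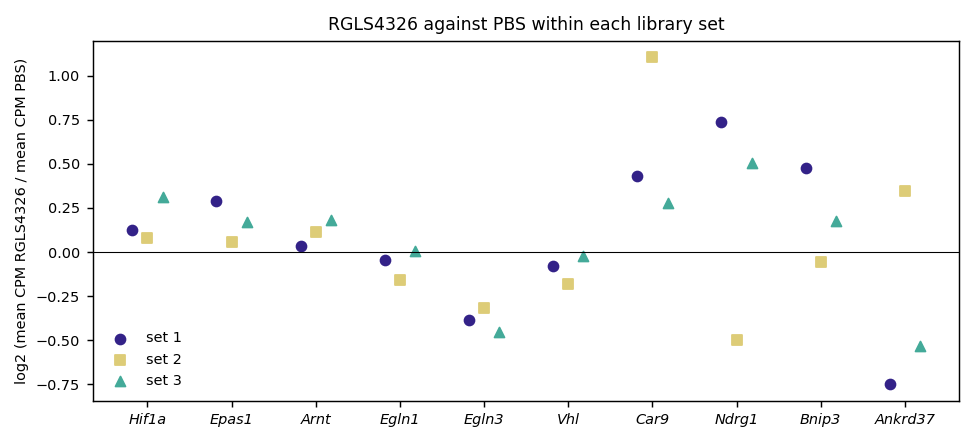
Log2 ratio of the mean CPM of RGLS4326 mice to that of PBS mice within each of the 3 library sets, with 3 or 4 mice of each group per set and no error bars. *Egln3* lies below 0 and *Car9* above 0 in all 3 sets, while *Ndrg1* (0.74, -0.50 and 0.51) and *Ankrd37* differ in sign between sets.

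HIF binds DNA at the core letters ACGTG or GCGTG, so these were searched on both strands in the 300 bases around each gene's start (RefSeq, GRCm38.p6). A promoter was given for 8 of the 10 genes. ACGTG was found in 6 of these 8 (*Hif1a*, *Egln1*, *Egln3*, *Car9*, *Bnip3*, *Ankrd37*), only GCGTG in *Arnt*, and neither in *Vhl*. Of 14673 promoters of tested genes 23.9% held ACGTG, 47.4% GCGTG and 58.5% either. The core ACGTG of the 3 members whose UNT and PBS groups did not overlap is shown with 12 bases on each side, 1 match per gene, 5′ to 3′ on the strand of the gene, with the core or its reverse complement in capitals. The matches stand at positions -229 (*Egln3*, chr12:54204087-54204115, minus strand), -18 (*Car9*, chr4:43506996-43507024, plus strand) and -107 (*Bnip3*, chr7:138909597-138909625, minus strand) relative to the start.
Egln3: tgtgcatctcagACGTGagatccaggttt
Car9: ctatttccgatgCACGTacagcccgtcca
Bnip3: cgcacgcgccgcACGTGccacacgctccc
The same core thus stood in the promoters of a gene that was higher and of 2 genes that were lower in PBS mice. A match is a description of the letters and not evidence of binding.

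RGLS4326 is directed at miR-17, whose mature sequence (RefSeq, chr14:115043684-115043706, plus strand) is shown with the seed, bases 2 to 8, in capitals.
miR-17-5p: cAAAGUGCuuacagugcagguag
For each gene the longest annotated 3′UTR (GENCODE M21) was searched for the match to the seed (GCACTTT), for the match to bases 2 to 7 followed by A (CACTTTA), and for both joined in 8 bases. A match was found in 5 of the 10 members (*Hif1a*, *Epas1*, *Egln3*, *Vhl*, *Bnip3*) and in 21.2% of 14193 tested genes with a 3′UTR. The members' 3′UTRs held 223 to 2308 bases, and the 2 shares were not matched for length or tested. A match describes the letters and is not evidence of targeting. The sites of the 2 members with a match that were called in the treatment contrast, which moved in opposite directions (*Egln3* lower, *Epas1* higher), are shown with the match in capitals, at chr12:54180314-54180343 (minus strand), chr17:86831264-86831293 and chr17:86832865-86832894 (plus strand).
Egln3: gcttcttattcGCACTTTAtgtatgcgtcc
Epas1, site 1: tctgacatgctCACTTTAttatccatgttt
Epas1, site 2: gtgttccaagaGCACTTTgtaactcactga
The treatment differences of the other 3 genes with a match were 0.18 (*Hif1a*), -0.08 (*Vhl*) and 0.20 (*Bnip3*), and none was called. *Car9*, which was called higher, had no match in its 619 bases of 3′UTR.

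The rest of the pathway was described by lists written from textbook knowledge, each read against the shares of all tested genes given above. Of the other HIF subunits, *Hif3a*, an alpha subunit that can oppose HIF activity, was lower in the disease contrast (log2 fold change -0.75 ± 0.29, edgeR adjusted p = 0.0196), with medians of 13.6 CPM in UNT and 5.58 in PBS mice and overlapping groups. That call was lost with library totals alone, limma-trend, the replicate block, the unassigned share as a covariate and in library set 2 alone. *Arnt2*, a second beta subunit, was called only in the residual contrast (0.34 on the log2 scale). Neither was called in the treatment contrast, where *Hif3a* stood at 0.33 (adjusted p = 0.396) and *Arnt2* at 0.21 (adjusted p = 0.0625, unadjusted p = 0.0232). There 1 of the 2 was called higher with library set as a term, and when RGLS4326 2 or 11 or PBS 6 or 8 was left out.

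Of 10 further genes of oxygen sensing and HIF turnover, 2 were higher and 2 lower in the disease contrast. *Tceb2* (0.32 ± 0.09, edgeR adjusted p = 0.00108) and *Tceb1* (-0.51 ± 0.08, adjusted p = 3.42e-07), which encode both elongins that join VHL to its ligase, moved in opposite directions on the log2 scale. *Cul2*, the scaffold of that ligase, fell by 0.35 ± 0.07 (adjusted p = 1.15e-05), and the coactivator *Ep300* was 0.25 ± 0.10 higher (adjusted p = 0.0292). With library totals alone 8 of the 10 were higher and 1 lower, and with relative log expression factors 1 was higher. The unassigned share as a covariate gave 2 higher and 4 lower, and leaving out a mouse gave 1 to 2 higher and 2 lower. In the treatment contrast 2 were higher and 3 lower. *Hif1an*, the hydroxylase that blocks coactivator binding, was 0.19 ± 0.05 higher (adjusted p = 0.00567) and *Cul2* 0.23 ± 0.07 higher (adjusted p = 0.0124). *Tceb2* fell by 0.35 ± 0.09 (adjusted p = 0.00623) and *Egln2*, the remaining prolyl hydroxylase, fell by 0.25 ± 0.07 (adjusted p = 0.00635). With the unassigned share as a covariate 1 was higher and 0 lower, where 145 of 15644 genes were called. In library sets 1, 2 and 3 alone the counts were 0 and 0, 1 and 2, and 0 and 0, where 54, 4065 and 0 genes were called. In the residual contrast 3 were higher and 3 lower.

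Of 26 other HIF target genes 25 were tested, and erythropoietin (*Epo*) was not, with a highest level of 0.613 CPM. In the disease contrast 12 were higher and 10 lower, with a median log2 fold change of 0.19 against 0.04 for all tested genes, and with library totals alone 14 were higher and 5 lower. *Edn1*, the vasoconstrictor endothelin, ranged from 2.55 to 5.45 CPM in UNT and from 21.0 to 62.0 CPM in PBS mice (log2 fold change 3.47 ± 0.19, edgeR adjusted p = 1.8e-18). *Lox*, which cross-links collagen, was 2.76 ± 0.15 higher on the log2 scale (adjusted p = 2.45e-18). In the other direction, *Vegfa*, the main growth factor of blood vessels, ranged from 356 to 427 CPM in UNT and from 55.4 to 115 CPM in PBS mice (-2.23 ± 0.15, adjusted p = 6.59e-16). *Car12*, a carbonic anhydrase like *Car9*, fell by 1.31 ± 0.08 (adjusted p = 9.63e-17), and *Pdk1*, a mitochondrial kinase that inhibits pyruvate dehydrogenase, fell by 1.1 ± 0.08 (adjusted p = 2.96e-15). Genes that rose and genes that fell thus stood side by side among the targets, as they did among the members. Summed medians of 4 fibroblast markers, 512 CPM in UNT and 3447 in PBS mice, moved with *Lox*, and those of proximal tubule moved with *Vegfa*, *Car12* and *Pdk1*; their part in these results was not tested.

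Between RGLS4326 and PBS mice 2 of the 25 tested targets were higher and 4 lower, and with the unassigned share as a covariate 0 were called. The counts were 1 and 2 with the depth as a covariate, 2 and 1 in library set 2 alone and 0 and 0 in sets 1 and 3 alone. Over all genes the unassigned share gave 145 calls, the depth 2843, and sets 1, 2 and 3 alone 54, 4065 and 0. Leaving out a mouse gave 1 (without RGLS4326 6 or 11) to 3 (without PBS 8) higher and 3 to 5 lower. *Vegfa* was 0.43 ± 0.15 higher (edgeR adjusted p = 0.0236, 9 of 11 mice) and *Kdm3a*, a histone demethylase, 0.30 ± 0.09 higher (adjusted p = 0.016, 10 of 11 mice). *Slc2a1*, a glucose transporter, fell by 0.27 ± 0.09 (adjusted p = 0.0166, 10 of 11 mice). Markers of proximal tubule (5 of 7 higher, summed medians of 1763 CPM in PBS and 2795 in RGLS4326 mice) and podocytes (3 of 3 higher, 60.3 and 70.4) moved in the direction of *Vegfa*, and their part in the result was not tested. In the residual contrast 12 were higher and 8 lower.

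Of 15 genes of glycolysis and lactate export, 6 were higher and 6 lower in the disease contrast. *Slc16a3*, a lactate exporter, ranged from 1.06 to 3.37 CPM in UNT and from 6.30 to 19.4 CPM in PBS mice (log2 fold change 2.52 ± 0.20, edgeR adjusted p = 3.49e-14). *Pfkp* (0.64 ± 0.06, adjusted p = 3.02e-12) and *Hk1* (0.65 ± 0.10, adjusted p = 3.26e-07), which act early in glycolysis, were also higher. *Pgk1* (-0.73 ± 0.07, adjusted p = 5.27e-12), *Gapdh* (-0.54 ± 0.08, adjusted p = 5.98e-08) and *Aldoc* (-0.85 ± 0.12, adjusted p = 8.42e-08) were lower. With library totals alone the split was 9 higher and 3 lower, and with the unassigned share as a covariate 3 higher and 10 lower.

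Between RGLS4326 and PBS mice 0 of the 15 glycolytic genes were higher and 8 lower by edgeR, and at an unadjusted p under 0.05 the counts were 0 and 11. Over all genes 7262 of 15644 had an unadjusted p under 0.05, in either direction. The median log2 fold change of the 15 genes was -0.22 against 0.00 for all tested genes. *Pkm*, which makes pyruvate, ranged from 380 to 702 CPM in PBS mice (median 491) and from 297 to 518 CPM in RGLS4326 mice (median 378), and fell by 0.44 ± 0.10 on the log2 scale (adjusted p = 0.003, 11 of 11 mice below the PBS mean). *Aldoa*, an aldolase, ranged from 577 to 962 CPM in PBS mice (median 765) and from 437 to 818 CPM in RGLS4326 mice (median 559), and fell by 0.40 ± 0.10 (adjusted p = 0.00505, 10 of 11 mice). *Slc16a3* (-0.49, adjusted p = 0.0418) and *Hk1* (-0.32, adjusted p = 0.0182) were among the 8. Scaled by relative log expression 0 were higher and 10 lower, and by library totals alone 0 and 11. Leaving out a mouse gave 6 to 11 genes lower, with 6 when PBS 9 or 11 or RGLS4326 5, 6, 7 or 11 was left out. With the unassigned share as a covariate 0 were called and 3 had an unadjusted p under 0.05. Over all 15644 genes that covariate gave 145 and 3359. In library sets 1, 2 and 3 alone 0, 10 and 0 were called, against 54 of 15737, 4065 of 15944 and 0 of 15676 genes. Markers of principal cells (3 of 4 lower, summed medians of 1428 CPM in PBS and 821 in RGLS4326 mice), macrophages (3 of 6 lower, 1388 and 1079) and T cells (3 of 3 lower, 12.2 and 8.14) were lower in the same contrast, and their part in the result was not tested. In the residual contrast 4 were higher and 8 lower.

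**Figure D5:**
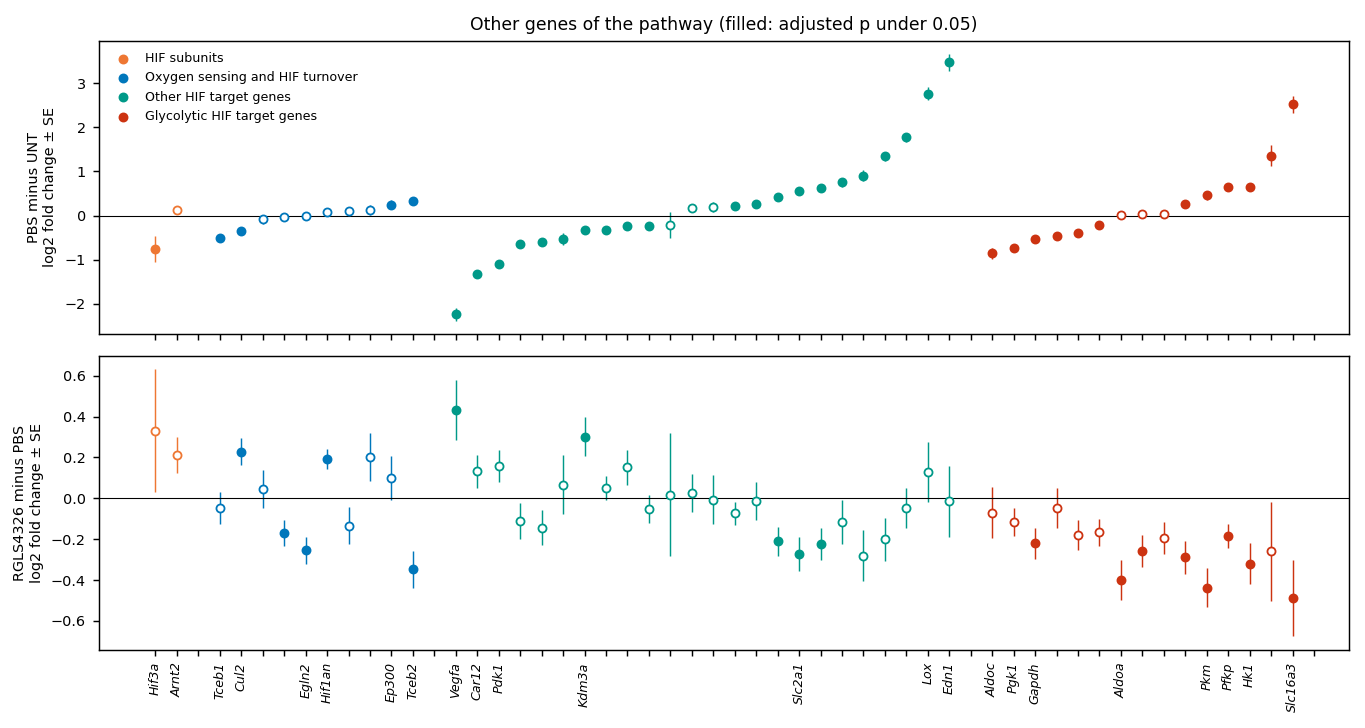
Log2 fold change ± SE of the other tested genes of the pathway in the disease contrast (top) and the treatment contrast (bottom), by list and ordered by the disease value, with names under the genes described in the text and 1 target not drawn, filled where the adjusted p was under 0.05. Targets and glycolytic genes spread to both sides of 0 in the disease contrast, from -2.23 for *Vegfa* to 3.47 for *Edn1*, and the glycolytic genes lie below 0 in the treatment contrast, on a narrower scale.

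Beyond the group differences, the members varied among themselves within groups. The highest correlation between members over the 34 mice, after subtracting group means from log2 CPM, was that of *Bnip3* and *Ndrg1* (r = 0.72), followed by *Arnt* and *Hif1a* (r = 0.58) and *Egln1* and *Vhl* (r = 0.49). *Car9* and *Ndrg1*, both targets that were lower in the disease contrast, were at r = -0.01. For both *Arnt* and *Hif1a* PBS 9 was the lowest PBS mouse (61.3 and 98.9 CPM, next lowest 73.7 and 170). Their correlation rests in part on that library, and no correlation was computed without it. These mice share library sets and differ in depth, and the values are a description with no test. Over all genes, those most like each member within groups were *Trappc11* (r = 0.91) for *Hif1a*, *Sephs2* (r = 0.86) and *Pex7* (r = 0.85) for *Bnip3*, *Plekhg1* (r = 0.84) and *Pja2* (r = 0.83) for *Arnt*, *Glul* (r = 0.83) and *Tesk2* (r = 0.83) for *Ndrg1*, *Cdc42se1* (r = 0.79) for *Vhl*, *Gstm4* (r = 0.77) and *Mpzl1* (r = 0.77) for *Egln3*. The likeness was weaker for *Epas1* (*Flt4* and *Lamc3*, r = 0.74 and 0.73), *Egln1* (*Nr2f6* and *Ywhab*, r = 0.74 and 0.73), *Car9* (*Park2* and *4430402I18Rik*, r = 0.68 and 0.67) and *Ankrd37* (*Pgbd1* and *Wdyhv1*, r = 0.66 and 0.65).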

How the data were processed

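Kidney RNA of 34 mice was sequenced by the authors with the TruSeq Stranded mRNA kit. The deposited tables hold whole-number read counts per gene, 1 table per mouse, with no normalization. The submitters' processing notes name FastQC 0.11.2, Trim Galore, STAR, SAMtools 1.1, HTSeq 0.6.1, Picard 1.119 and the builds GRCm38 and mm10, and the annotation and strand setting were not given in the sources used here. The 5 counter totals in each table stayed out of library sizes and tests. Each table had 17603122 to 54981992 reads in genes, so depth limits mainly *Car9*, *Ankrd37* and *Egln3*. No 2 tables were identical (0 pairs). Groups follow the labels. The p-values measure the spread between these mice.

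Counts were scaled by TMM, filtered with filterByExpr and compared by edgeR 4.0.16, quasi-likelihood test (R 4.3.3, limma 3.58.1) on all 34 libraries and 3 groups with no covariate, with Benjamini-Hochberg adjustment over 15644 genes. All 10 members were named, and of each other list the called genes with the smallest p in each direction, 3 in the disease and 2 in the treatment contrast, plus the 2 genes most correlated with each member. Of the genes so chosen, 3 are not reported here, while the counts of the lists cover all their tested genes. The members and lists were chosen with earlier results of these data known. Alternatives were relative log expression factors, library totals, no filter, DESeq2 1.42.0, limma-trend, the 2 groups alone, library set, replicate block, 2 covariates, each set alone, a log2 fold change above 0.5 and leaving out each mouse. The same alternatives for the pathway lists were chosen after seeing the data. The fit was tested on simulated data. Exon lengths, positions and 3′UTRs came from GENCODE M21 (GRCm38), and promoters and miR-17 from RefSeq (GRCm38.p6). Tables and figures used Python 3.11.15, numpy 2.4.6, pandas 2.3.3 and matplotlib 3.10.9.

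Marker lists in the treatment contrast gave 5 higher and 0 lower of 7 for proximal tubule, 2 and 1 of 3 for thick ascending limb, 1 and 0 of 2 for distal convoluted tubule, 0 and 3 of 4 for principal cells, 0 and 1 of 3 for intercalated cells, 4 and 0 of 7 for endothelium, 0 and 3 of 6 for macrophages, 0 and 0 of 4 for fibroblasts, 3 and 0 of 3 for podocytes, 0 and 3 of 3 for T cells, 0 and 0 of 2 for erythroid cells, and 0 and 0 of 4 for proliferation.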

Additional observations from a re-analysis of the deposited data

How the results depend on the processing

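Of the comparisons of a member under another setting (10 genes, 3 contrasts, 13 settings), 332 kept direction and side of the threshold, 32 lost the call, 10 gained one and 16 turned direction; the cause was not tested unless said. Members called higher in the disease contrast (2) became 6 with library totals alone, and members called lower in the residual contrast (4) became 2. That scaling moved the median log2 fold change of all genes from 0.04 to 0.33 in the disease and from 0.02 to 0.33 in the residual contrast. With an absolute log2 fold change above 0.5 the members called were 1 higher and 3 lower in the disease contrast, 1 higher and 0 lower in the treatment contrast and 1 higher and 3 lower in the residual contrast. In the treatment contrast the count higher (2) was 1 with only the groups compared and in library set 2 alone, and 0 with either covariate (unassigned share, log2 reads in genes) and in sets 1 and 3 alone, and the count lower (1) was 0 with either covariate and in each set alone, where fewer mice were tested. At an unadjusted p under 0.05 either covariate gave 4 higher and 1 lower, and the sets 3, 2 and 1 higher with 1 lower each. Over all genes that threshold gave 3359 (unassigned share) and 5964 (log2 reads in genes) of 15644. In the sets it gave 3421 of 15737, 6361 of 15944 and 2826 of 15676 genes. The count higher in the residual contrast (4) was 2 with log2 reads in genes as a covariate and in set 3 alone. Leaving out each mouse gave 0 (without RGLS4326 6) to 4 (without PBS 5 or 7) members higher and 1 lower in the treatment contrast, 2 higher and 4 lower in the disease contrast, and 4 and 4 in the residual contrast.

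Direction turned for *Arnt* in the disease contrast (-0.028 with relative log expression factors, -0.035 with no filter, -0.025 with DESeq2, -0.10 in set 3, and -0.010 to 0.025 when a mouse was left out), and for *Hif1a* there (-0.071 with the unassigned share, -0.27 in set 3). With library totals alone it turned for *Epas1* in the disease contrast (0.20) and *Ankrd37* in the residual contrast (0.14). In set 2 alone it turned for *Ankrd37* (-0.067 disease, 0.37 treatment, 0.30 residual), for *Bnip3* (-0.044) and *Ndrg1* (-0.49) in the treatment contrast and for *Epas1* in the residual contrast (-0.16). The treatment values of *Vhl* with the unassigned share (0.0083) and of *Egln1* in set 3 (0.0058) were also above 0. None of these differences was called in the fit reported above. In the residual contrast library totals alone gave, as higher and lower, 5 and 2 members, 7 and 1 sensing genes, 16 and 5 other targets and 7 and 5 glycolytic genes.

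The replicate block was run although same-numbered mice did not deviate together (correlations over 0.1 in 2, 5 and 3 of 11 numbers in the 3 pairs of groups, and at most 1 of 11 mice closest to its own number). With the replicate block the call of *Epas1* in the treatment contrast was lost (0.19, edgeR adjusted p = 0.0522) and that of *Arnt* gained (0.11, adjusted p = 0.0438), the count of members called higher staying at 2. Over all genes the treatment contrast called 5280 genes, 5098 with the block, 2843 with log2 reads in genes and 145 with the unassigned share as a covariate (3359 at an unadjusted p under 0.05), and 54, 4065 and 0 in sets 1, 2 and 3 alone. With library totals alone the disease contrast called 8970 genes higher and 4099 lower, against 6746 and 6095.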
